A study of Mus musculus with 75 samples.

Results

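The genes that handle heme and iron in the lung were followed through bleomycin injury in 10 members, *Hmox1*, *Fth1*, *Ftl1*, *Slc40a1*, *Tfrc*, *Slc11a1*, *Cd163*, *Hp*, *Alas2* and *Trf*. They were taken by their symbols in the Ensembl release 96 annotation, as 10 of the 55536 genes in the count table, and each of the 10 was among the 16221 genes with enough counts to be tested. RNA was sequenced from the right lung's inferior lobe in 75 male C57BL/6JRj mice, with 1 library per mouse. The treated mice were 12 to 14 weeks old at instillation, and so older when their lungs were taken. Bleomycin (BLEO), a drug that injures the alveolar epithelium, was given as a single intratracheal instillation to model idiopathic pulmonary fibrosis (BLEO-IPF mice), and the groups held 10 mice at day 7, 12 at each of days 14, 21, 28 and 35, and 7 at day 42. The 10 control mice (CTRL) were labelled as given saline, as the study's figure captions also state, whereas its methods call them untreated. There was 1 CTRL group, whose day of collection the labels do not give, so time after the start and treatment cannot be told apart. Entry of a BLEO-IPF mouse required a mild or moderate loss of weight by day 6, and the airways were rinsed to collect lavage cells before the lobe was frozen. The lobe carried a strong lung signal, since the 10 markers of alveolar type 2 cells summed to 28059 to 34575 CPM (counts scaled to a common library total) in CTRL mice.

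Heme is an iron-holding ring that carries oxygen in hemoglobin. Heme oxygenase opens the ring and frees its iron, ferritin stores iron in a shell of heavy and light chains, and ferroportin is the route by which iron leaves a cell. Macrophages of the lung and spleen take up damaged red cells and the hemoglobin they spill, and recycle their iron. Much of this control acts on messenger RNA through iron responsive elements, short hairpins that bind iron regulatory proteins when iron is scarce, which blocks translation where the hairpin precedes the coding sequence and protects the transcript where it follows it.

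The letters of such hairpins are shown for the members that hold them. Coding transcripts of the 10 members were searched for a loop of CAGTGN, with an unpaired C separated from it by 5 bases and at least 4 of 5 base pairs in the upper stem. A G opposite a T, the G-U wobble of RNA, counted as a pair. The search found 8 elements in 5 members, each with 5 of 5 pairs. Such a wobble is among the pairs of *Alas2* and of the *Tfrc* element that starts at chr16:32631598. They are given 5′ to 3′ on the transcript strand as 29 DNA bases of the GRCm38 genome, with the 6 bases of the loop in capitals.
*Fth1*, 5′ UTR, chr19:9982732-9982760, plus strand: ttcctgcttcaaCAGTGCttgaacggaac
*Ftl1*, 5′ UTR, chr7:45459779-45459807, minus strand: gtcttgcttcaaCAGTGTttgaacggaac
*Slc40a1*, 5′ UTR, chr1:45925465-45925493, minus strand: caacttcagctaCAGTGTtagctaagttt
*Alas2*, 5′ UTR, from chrX:150547458 across an exon junction to chrX:150552149, plus strand: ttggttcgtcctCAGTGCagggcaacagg
*Tfrc*, 3′ UTR, chr16:32631219-32631247, plus strand: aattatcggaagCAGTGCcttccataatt
*Tfrc*, 3′ UTR, chr16:32631598-32631626, plus strand: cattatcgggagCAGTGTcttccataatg
*Tfrc*, 3′ UTR, chr16:32631663-32631691, plus strand: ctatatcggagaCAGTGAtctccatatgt
*Tfrc*, 3′ UTR, chr16:32631710-32631738, plus strand: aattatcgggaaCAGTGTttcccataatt
The same letters and at least 4 pairs occurred in a UTR of 4.89% of 21901 protein-coding genes, and those with 5 pairs in 0.726%, so a match is a description of the sequence. No match was found in the UTRs of *Hmox1*, *Hp*, *Cd163*, *Trf* and *Slc11a1*, which says only that these letters were not there. Counts of RNA do not show the translational part of this control.

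Values are CPM after scaling by TMM factors, which correct for library composition, and a called gene had a Benjamini-Hochberg adjusted p under 0.05 over all genes tested in the edgeR quasi-likelihood fit. Total counts per library ran from 9240291 to 14665247 with a median of 10677163. Fold changes are fitted log2 values ± standard error (SE). The labels do not tie mice to cages, litters or days, so p-values measure the spread between these mice. In pieces of whole tissue, a change in the number of cells that make an RNA and a change in RNA per cell cannot be told apart.

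RNA of *Hmox1*, *Fth1*, *Ftl1* and *Slc11a1* were called higher than CTRL and *Alas2* lower on each of the 6 days. Each day was compared with the same 10 CTRL mice, so the 6 comparisons are not independent. Day 7 had 7 of the 10 members called (6 higher, 1 lower), beside 45.8% of all genes tested (24.8% higher, 21% lower). Day 14 had 8 (6 and 2), beside 62.4% (32.4% and 29.9%), and day 21 had 6 (5 and 1), beside 54.2% (28.3% and 25.8%). Days 28 and 35 had 6 each (5 and 1), beside 43.3% (24.1% and 19.2%) and 29.9% (16.9% and 13.1%), and day 42 had 5 (4 and 1), beside 24.7% (13.7% and 11%). The median fitted log2FC over the members ran from 0.34 on day 42 to 0.68 on day 14, while the median over all genes lay between -0.00 and 0.02. Groups separated completely, with every BLEO-IPF mouse above every CTRL mouse, for 1 member on day 7 (*Hmox1*, beside 7.39% of all genes) and for 5 on day 14 (*Hmox1*, *Fth1*, *Ftl1*, *Slc40a1* and *Slc11a1*, beside 9.46%). They separated for 4 on day 21 (without *Slc40a1*, beside 6.84%), and for *Slc11a1* alone on days 28, 35 and 42 (beside 2.1, 2.43 and 4.22%). Between BLEO-IPF groups, 6 members differed between days 14 and 7 (beside 17% of all genes), 1 between days 21 and 14 (beside 1.03%), 4 between days 42 and 14 (beside 34%) and 3 between days 42 and 7 (beside 17.8%). Between days 28 and 21 (beside 0.727%) and days 35 and 28 (beside 1.27%) edgeR called 0 members, while an unadjusted p under 0.05 held for 4 and 2 of them. DESeq2 called *Hmox1* in the former (adjusted p = 0.0407) and *Alas2* in the latter (0.0470).

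**Figure D1:**
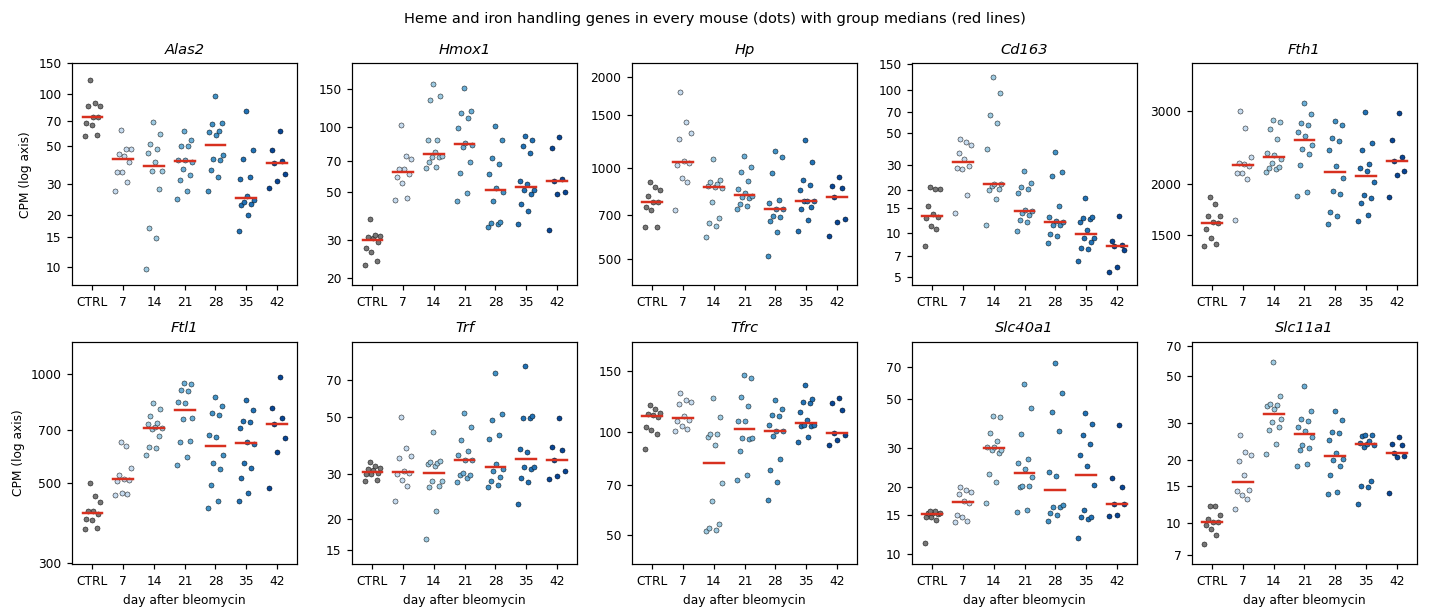
CPM (vertical log axes) of the 10 members in each of the 75 mice (dots), by group from CTRL through days 7 to 42 after BLEO, with the group median as a red line. *Hmox1* and *Slc11a1* medians stand above CTRL on each day, *Alas2* medians below it, and *Cd163* on day 14 reaches from 11.4 to 122.2 CPM.

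**Figure D2:**
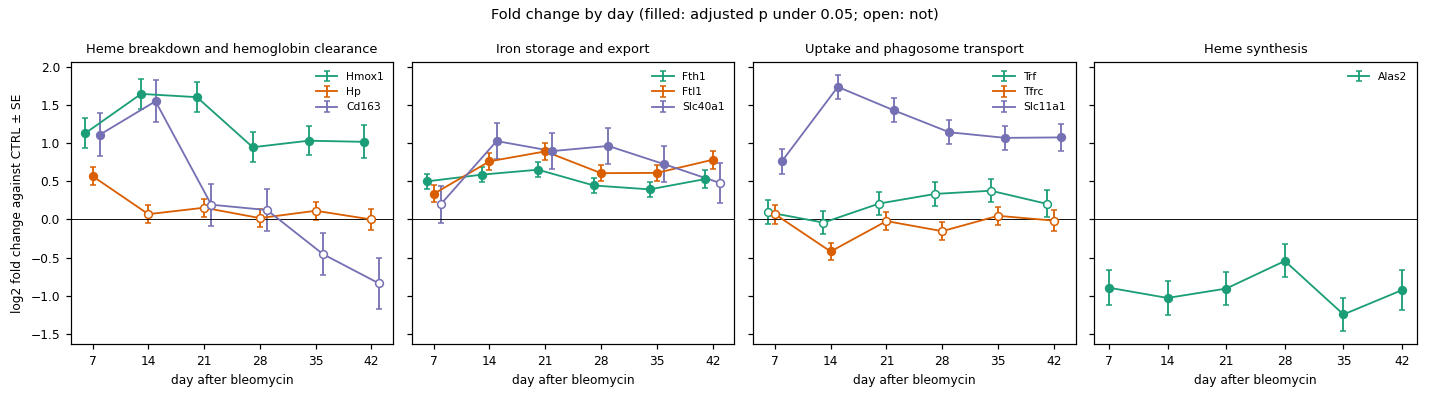
Fitted log2 fold change against CTRL (vertical axis, bars ± SE) by day after BLEO (horizontal axis) for the members in 4 roles, with filled points where the adjusted p was under 0.05 and open points where it was not. *Slc11a1* reaches 1.74 and *Hmox1* 1.65 on day 14, *Cd163* goes from 1.55 on day 14 to -0.84 on day 42, and *Alas2* lies between -1.25 and -0.54.

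*Hmox1* (chr8:75093621-75100589, plus strand) encodes the inducible heme oxygenase, which opens the heme ring. CTRL mice held 23.1 to 37.5 CPM with a median of 30.02. Mice of day 7 held 45.9 to 102.1 CPM (median 62.3), those of day 14 held 64.7 to 158.3 (median 75.4) and those of day 21 held 45.3 to 151.9 (median 83.6). On these 3 days each mouse stood above each control. Later mice were lower and overlapped with CTRL at their lower end, with medians of 51.1, 52.96 and 56.2 CPM and lowest mice of 34.4, 35.4 and 33.3 CPM on days 28, 35 and 42. The fitted log2FC was 1.13 ± 0.20 on day 7 (adjusted p = 4.03e-06), 1.65 ± 0.20 on day 14 (6.03e-11) and 1.61 ± 0.20 on day 21 (2.52e-10), or 3.13-fold at its largest. Later values were 0.95 ± 0.19, 1.03 ± 0.19 and 1.02 ± 0.22 (adjusted p = 6.00e-05, 2.30e-05 and 0.000289). Day 42 lay below day 14 by 0.63 on the log2 scale (adjusted p = 0.0163). That difference was lost without the mouse BLEO_day42 replicate 4, where the log2FC was -0.53 and the adjusted p 0.0589. Day 14 exceeded day 7 by 0.52 (adjusted p = 0.0456), a call that did not hold under 3 of the alternatives or without any of 11 single mice. These were replicates 2, 3, 4, 6, 7, 9 and 10 of day 7 and replicates 3, 4, 8 and 9 of day 14, with adjusted p-values of 0.0517 to 0.12.

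Haptoglobin binds hemoglobin freed from red cells, and CD163 is a receptor of macrophages that takes up hemoglobin. Their genes were both called higher on early days. *Hp* (chr8:109575128-109579172, minus strand), which encodes haptoglobin, ran from 639 to 898 CPM in CTRL mice (median 773) and from 728 to 1786 on day 7 (median 1045). Day 7 was raised by 0.57 ± 0.12 on the log2 scale (adjusted p = 9.34e-05), and 9 of 10 mice stood above every control. From day 14 on, medians lay between 733 and 863 CPM, and the fitted log2FC between -0.00 and 0.15 with adjusted p-values of 0.261 to 1.00. The fall from day 7 to day 14 was itself called, at -0.50 ± 0.12 (adjusted p = 0.00164). Haptoglobin is made in bulk by the liver, and the 8 hepatocyte markers summed to a median of 6.28 CPM or less in each group, with *Ttr*, *Serpina1a* and *Fgb* at 0 in most mice, though single mice of CTRL and day 35 reached 28.8 and 35.4 CPM. Of the 3 that were tested, *Fga* and *Ahsg* were called higher and *Alb* not called on day 7.

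*Cd163* (chr6:124304656-124330527, plus strand) rose on days 7 and 14 and was not called against CTRL from day 21 on. CTRL mice held 8.19 to 21.1 CPM (median 13.3) and mice on day 7 held 13.8 to 45.2 (median 31.3), a log2FC of 1.11 ± 0.28 (adjusted p = 0.000951). On day 14 the mice ran from 11.4 to 122.2 CPM (median 22.03), with a log2FC of 1.55 ± 0.28 (adjusted p = 1.91e-06). The 5 highest mice of day 14 held 38.4, 58.6, 66.8, 95.1 and 122.2 CPM, and the other 7 held 11.4 to 22.2. In all, 8 of 12 stood above the highest control. Medians were 14.4, 12.1, 9.94 and 8.14 CPM on days 21, 28, 35 and 42. On day 42 the log2FC was -0.84 ± 0.33, which missed the threshold (adjusted p = 0.0548). It passed without any of 3 mice, replicates 1 and 2 of CTRL and replicate 6 of day 42 (adjusted p 0.0339 to 0.04998), and with DESeq2 (0.0307). The fall from day 14 to day 21 was -1.36 ± 0.26 (adjusted p = 0.00381), and from day 14 to day 42 it was -2.39 ± 0.34 (adjusted p = 1.26e-07). Without BLEO_day14 replicate 8 the former was -1.09 with an adjusted p of 0.0511, and in a fit of only these 2 groups its adjusted p was 0.177.

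The lung's interstitial macrophages carry CD163. Of their 12 listed markers, all tested, 7 were called higher and 1 lower on day 7, with 9 and 1 for day 14 and 6 and 3 for day 42. *Folr2*, a folate receptor of such macrophages, held a median of 3.67 CPM in CTRL and 6.88 on day 14 (means 3.59 and 11.3). *F13a1*, the coagulation factor XIII chain they make, held medians of 29.2 and 52.3 (means 29.6 and 94.6). Both were also among the 3 genes found most like *Cd163* by group means. In contrast, *Lyve1* was called lower on days 21, 28, 35 and 42, and *Pf4* was not called on any day. The list summed to 4821 to 5719 CPM in CTRL mice and to 2326 to 3836 on day 14, and *Cbr2*, which airway cells also make, gave most of it, with a mean of 4093 CPM in CTRL and 919 on day 14. The part of these cells in the *Cd163* values was not tested.

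Ferritin RNA was raised for both chains, each by less than 2-fold. *Fth1* (chr19:9980598-9985098, plus strand), the heavy chain that oxidises iron, held 1409 to 1859 CPM in CTRL mice (median 1606). Mice of day 7 held 1630 to 3007 CPM (median 2217), those of day 14 held 2132 to 2856 (median 2327) and those of day 21 held 1864 to 3151 (median 2549). The groups did not overlap on days 14 and 21. Later medians were 2138, 2081 and 2271 CPM, with the lowest mouse of each group inside the control range. The log2FC was 0.50 ± 0.10 on day 7 (adjusted p = 5.44e-05), 0.65 ± 0.10 on day 21 (9.02e-08) and 0.53 ± 0.11 on day 42 (0.000265).

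*Ftl1* (chr7:45457944-45459884, minus strand), the light chain, which helps the iron core to form, rose further after day 7. CTRL mice held 372 to 498 CPM (median 413), mice on day 7 held 463 to 648 (median 510), and on day 14 they held 596 to 832 (median 711) with no overlap. Medians were 792, 631, 643 and 729 CPM on days 21, 28, 35 and 42. The log2FC was 0.34 ± 0.11 on day 7 (adjusted p = 0.0106), 0.89 ± 0.11 on day 21 (2.15e-10) and 0.78 ± 0.12 on day 42 (1.24e-06). Day 14 exceeded day 7 by 0.43 ± 0.11 (adjusted p = 0.00359), and day 42 exceeded day 7 by 0.45 ± 0.12 (0.00599). Ferritin genes have many processed copies in the genome, and those in the table held 0.0146% as many counts as *Fth1* and 0.0496% as many as *Ftl1*.

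The balance of the chains at the RNA level differed from CTRL after day 7. The ratio of *Fth1* to *Ftl1* counts per kilobase (kb) of exon within a library, in which no scaling between libraries enters, ran from 1.36 to 1.64 in CTRL mice (median 1.47) and from 1.36 to 2.29 on day 7 (median 1.66). From day 14 to day 42 the medians were 1.28, 1.28, 1.32, 1.30 and 1.23. Against CTRL the mean log2 ratio was lower by 0.18 on day 14 (log2 difference -0.18, permutation test, two-sided, adjusted p = 0.0021) and by 0.24 on day 21 (-0.24, permutation test, 0.00012). Differences on days 28 and 35 were -0.15 and -0.21 (permutation test, adjusted p = 0.028 and 0.00018), and that on day 42 was -0.24 (exact permutation test, 0.0021). On day 7 the difference was 0.16 and its adjusted p by permutation, over the 12 ratio tests described here, was 0.056. This ratio was chosen after the values of its genes were known.

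*Slc40a1* (chr1:45908068-45926523, minus strand) encodes ferroportin, the iron exporter. CTRL mice held 11.3 to 15.7 CPM (median 15.2), and mice on day 7 held 14.0 to 20.2 (median 17.1), with a log2FC of 0.20 ± 0.24 that was not called. On day 14 the mice held 17.0 to 42.0 CPM (median 29.9), each above each control, and the log2FC was 1.03 ± 0.23 (adjusted p = 0.000116). The step from day 7 to day 14 was 0.83 ± 0.23 (adjusted p = 0.00865). Later groups were more scattered. On day 28 they ran from 14.1 to 72.8 CPM, 5.17-fold, with a median of 19.5, whereas CTRL mice spanned 1.39-fold. The calls on day 21 (0.90 ± 0.23, adjusted p = 0.000874), day 28 (0.97 ± 0.23, 0.000588) and day 35 (0.73 ± 0.23, 0.0132) rest on means of such groups. On day 42 the log2FC was 0.48 ± 0.27 (adjusted p = 0.18), and it was called in a fit of the 2 groups alone (adjusted p = 0.013).

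*Trf* (chr9:103204001-103230444, minus strand), which encodes transferrin, the iron carrier of plasma, held 28.1 to 33.3 CPM in CTRL mice. Its group medians lay between 30.2 and 34.2 CPM on each day, and it was called on none. The upper mice reached 74.5 CPM on day 28 and 78.8 on day 35, and the coefficient of variation was 5.36% in CTRL and 38.7% on day 35. With a log2FC of 0.38 ± 0.15 on day 35 the adjusted p was 0.0534, and with 0.34 ± 0.15 on day 28 it was 0.069. Day 35 was called with DESeq2 (adjusted p = 0.0434), with library size as the only scaling (0.0476), in a fit of the 2 groups alone (0.0460) and without any of replicates 1, 3, 4, 10, 11 and 12 of day 35. Day 28 was called without any of its replicates 2, 7 and 11, and day 21 in a fit of the 2 groups alone (0.0438). Of the 3320 exon bases of *Trf*, 2108 are shared on the same strand with the gene model *Gm20425*, which held 0 counts over all libraries, and how the counting treated shared bases is not given in the sources used here.

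*Tfrc* (chr16:32608920-32632794, plus strand) encodes the receptor that brings iron-loaded transferrin into cells. It held 88.9 to 119 CPM in CTRL mice (median 111) and 101 to 130 on day 7 (median 109.6). On day 14 the mice ran from 51.5 to 125 CPM (median 81.3). Of the 12 mice, 6 held 70.95 CPM or less, below every control, and 6 held 91.6 CPM or more. The log2FC on day 14 was -0.42 ± 0.12 (adjusted p = 0.00153), and on the other days it lay between -0.15 and 0.07 without a call. Day 14 was lower than day 7 (log2FC -0.49 ± 0.12, adjusted p = 0.00232), and day 42 was higher than day 14 by 0.41 ± 0.13 (adjusted p = 0.0117). The latter was not called in a fit of these 2 groups alone (adjusted p = 0.0721).

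*Slc11a1* (chr1:74375195-74386062, plus strand) encodes a pump that moves iron and manganese out of the phagosomes of macrophages and neutrophils. C57BL/6 mice are known to carry an allele that impairs the protein, which read counts do not show. CTRL mice held 7.93 to 11.95 CPM (median 10.1), and mice on day 7 held 11.6 to 26.1 (median 15.6). Those of day 14 held 21.2 to 58.6 CPM (median 33.1) and those of day 21 held 18.7 to 44.8 (median 26.6). Medians of days 28, 35 and 42 were 20.8, 23.6 and 21.6 CPM, and the lowest mice held 13.7, 12.3 and 13.9 CPM, still above the highest control. The log2FC was 0.77 ± 0.16 on day 7 (adjusted p = 9.09e-05), 1.74 ± 0.16 on day 14 (9.75e-15) and 1.43 ± 0.16 on day 21 (1.10e-11). It was 1.14 ± 0.16, 1.07 ± 0.16 and 1.08 ± 0.18 thereafter (adjusted p = 2.52e-08, 2.14e-07 and 3.73e-06). Day 14 exceeded day 7 by 0.97 ± 0.15 (adjusted p = 8.92e-06), and day 42 lay below day 14 at -0.66 ± 0.17 (0.00162).

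Markers of monocyte-derived macrophages moved with *Slc11a1* and *Hmox1*. All 12 of their listed markers were called higher on days 14, 21, 28 and 35, and 11 on days 7 and 42. Their summed level was 1301 to 1619 CPM in CTRL mice, 4724 to 22971 on day 14 and 1837 to 7591 on day 42. *Fn1*, which fibroblasts and other cells also make, gave a mean of 531 CPM of this in CTRL and 5321 on day 14. Of the 12 neutrophil markers 8 were tested. On day 14 *S100a8*, *Retnlg*, *Mmp8* and *Ngp* were called higher and *S100a9*, *Csf3r*, *Cxcr2* and *Mmp9* were not called, and *Mmp9* was called lower on days 21 and 28. The *S100a8* median was 14.3 CPM on day 14 and 16.6 in CTRL, and its day 14 mean of 29.2 held 1 mouse at 159 CPM. In contrast, the *Mmp8* median was 17.9 CPM on day 14 and 2.91 in CTRL. The markers *Ly6g*, *Elane*, *Mpo* and *Camp* had too few counts to be tested. Of 12 alveolar macrophage markers, 3 were called higher and 2 lower on day 7 and 7 and 4 on day 21, with sums of 553 to 1102 CPM in CTRL and 695 to 2439 on day 21. The neutrophil list summed to 43.6 to 124 CPM in CTRL mice and 46.9 to 647 on day 14, with medians of 91.1 and 95.5. The part of these cells in the members' values was not tested.

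*Alas2* (chrX:150547375-150570638, plus strand) encodes the aminolevulinate synthase of red cell precursors, which starts heme synthesis, and it was lower in BLEO-IPF mice on each day. CTRL mice held 56.9 to 120.1 CPM (median 73.3). Medians of days 7 to 42 were 41.9, 38.1, 41.03, 50.9, 25.1 and 40.1 CPM in turn. Below the lowest control stood 9 of 10 mice of day 7, 10 of 12 of day 14, 11 of 12 of day 21, 6 of 12 of day 28, 11 of 12 of day 35 and 6 of 7 of day 42. The mice of days 14, 28 and 35 ran from 9.82 to 68.8, 27.7 to 97.0 and 16.3 to 79.7 CPM, and each group overlapped with CTRL at its upper end. The log2FC was -0.90 ± 0.23 (adjusted p = 0.000976), -1.03 ± 0.22 (4.01e-05) and -0.91 ± 0.22 (0.000329) on days 7, 14 and 21. It was -1.25 ± 0.22 (7.84e-06) and -0.93 ± 0.26 (0.00569) on days 35 and 42. On day 28 it was -0.54 ± 0.22 (adjusted p = 0.0356), a call that was lost with no filter on low counts (0.0653) and without any of 9 mice, replicates 2, 3 and 8 of CTRL and replicates 4, 5, 6, 7, 9 and 12 of day 28 (0.05002 to 0.0907). *Apex2* overlaps *Alas2* on the opposite strand and held 17.3% as many counts, and the treatment of strand in the counting is not given in the sources used here.

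The mRNA of red cells moved with *Alas2*. Over all genes searched, the 3 whose group means were most like those of *Alas2* were *Hba-a1*, *Hba-a2* and *Hbb-bs*, which encode alpha and beta globin chains. *Hba-a1* held a mean of 410 CPM in CTRL and 202 on day 14, with log2FC values from -0.58 on day 28 to -1.30 on day 35. Of the 12 listed red cell markers, 7 were tested, and 6, 5, 6, 2, 5 and 4 of these were called lower on days 7 to 42 in turn, with 0 called higher. The list summed to 1041 to 2762 CPM in CTRL mice, 217 to 1625 on day 14 and 386 to 1538 on day 35, and *Rhag*, one of those untested, was at 0 in each CTRL mouse. Within groups, log2 CPM of *Alas2* and of the 4 globin genes *Hba-a1*, *Hba-a2*, *Hbb-bs* and *Hbb-bt* summed varied together among mice. Pearson's r ran from 0.921 in the 10 mice of day 7 (permutation test, two-sided, adjusted p over 7 groups = 3.5e-05) to 0.985 in the 7 mice of day 42 (exact permutation test, 0.0006). Spearman's rho ran from 0.895 on day 35 (permutation test, adjusted p = 0.00031) to 0.979 on day 14 (7e-05). Without the 2 mice farthest from the median, r stayed between 0.880 and 0.971 in the 6 groups that kept at least 6 mice.

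As a share of globin, *Alas2* counts came to 4.28 to 5.56% of those of the 4 globin genes in CTRL mice (median 4.79%). Group medians of days 7 to 42 were 4.94, 4.61, 4.47, 4.54, 4.62 and 4.46% in turn. Over the 6 days the mean log2 ratio differed from CTRL by -0.14 to 0.01, with adjusted p-values from 0.062 to 0.87 (permutation tests, exact for day 42), and these do not show that the ratio was equal. Before adjustment the permutation p was 0.036 on day 21 and 0.049 on day 42 (exact). With single mice left out it ran from 0.00672 to 0.0772 and from 0.0158 to 0.111, at log2 differences of -0.16 to -0.11 and -0.12 to -0.08. The part of blood left in the tissue in the *Alas2* values was not tested.

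**Figure D3:**
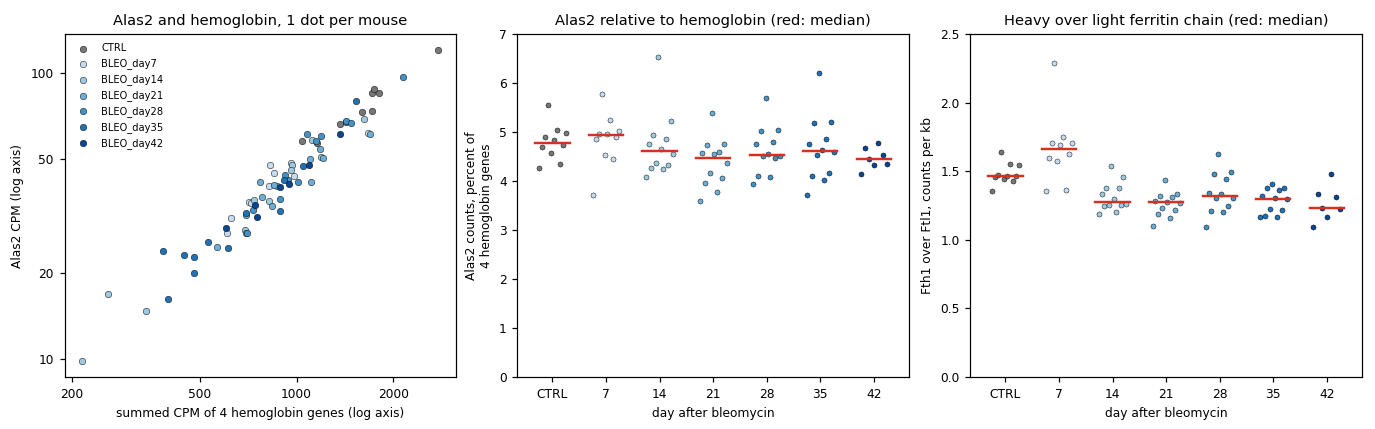
Left, *Alas2* CPM against the summed CPM of 4 globin genes (log axes, 1 dot per mouse, shaded by group). Middle, *Alas2* counts as a percent of globin counts, and right, the *Fth1* to *Ftl1* ratio per kb, by group with medians as red lines. The middle medians lie between 4.46% and 4.94% and the right medians go from 1.66 on day 7 to 1.28 on day 14.

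Among themselves, some members varied together from mouse to mouse within a group. Correlations were taken over the 75 mice on log2 CPM after subtracting each group's mean, with permutation tests that shuffled mice within groups and adjustment over the 45 pairs. Of the 45 pairs, 18 passed for both Pearson's r and Spearman's rho, 15 of them positive. The share of passing pairs among all genes was not computed, so this count does not set the members apart from other genes. *Fth1* and *Ftl1* were tied most closely (r = 0.850, rho = 0.844, adjusted p = 6.4e-05 and 0.00011 by permutation), with r positive in each of the 7 groups from 0.508 to 0.945. *Hmox1* followed *Fth1* (r = 0.759, rho = 0.716) and *Ftl1* (r = 0.711, rho = 0.651) with the same adjusted p-values, again positive in each group. *Slc40a1* followed *Slc11a1* (r = 0.611, rho = 0.571) and *Trf* (r = 0.597, rho = 0.371), though not in each group. These r were positive in 6 and 5 of the 7 groups, with lowest group values of -0.117 and -0.421. *Alas2* ran against *Slc11a1* (r = -0.526, rho = -0.498, permutation adjusted p = 0.00015 for both) with a negative r in each of the 7 groups, and against *Slc40a1* (r = -0.519, rho = -0.471). Without the 2 mice farthest from the median in the former gene of each pair these r were 0.852, 0.741, 0.724, 0.638, 0.535, -0.509 and -0.507. Both genes of a pair share a library and its scaling factor.

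*Cd163* and *Tfrc* ran against each other by r (-0.483, permutation adjusted p = 0.0036) and not by rho (-0.269, 0.067), and r was -0.294 without day 14. The mouse BLEO_day14 replicate 8 stood at the end of several scales. It held the highest *Cd163* (122.2 CPM) and *Hmox1* (158.3 CPM) and the lowest *Alas2* (9.82 CPM) of its group, 53.8 CPM of *Tfrc*, and the highest summed neutrophil markers (647 CPM). The log2FC of *Cd163* on day 14 against CTRL without it was 1.28 (adjusted p = 2.14e-05).

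**Figure D4:**
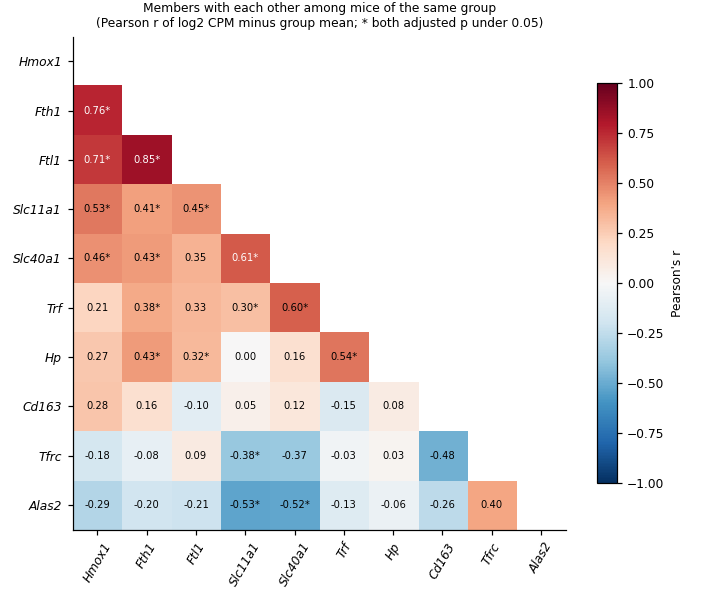
Pearson's r between members (rows and columns) over 75 mice, on log2 CPM minus the group mean, with an asterisk where the adjusted p of both r and rho was under 0.05. *Hmox1*, *Fth1* and *Ftl1* form a block from 0.71 to 0.85, and *Alas2* is negative with *Slc11a1* (-0.53) and *Slc40a1* (-0.52).

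Compared per length, the members spanned a wide range in CTRL lungs. *Hp* held 480 ± 54.8 CPM per kb of exon (SD, n = 10), *Fth1* 462 ± 42.6 and *Ftl1* 312 ± 29.2, ahead of *Alas2* at 32.2 ± 7.76. *Tfrc* followed at 17.4 ± 1.52, *Hmox1* at 16.7 ± 2.42 and *Trf* at 9.20 ± 0.49, and *Slc11a1* (2.73 ± 0.35), *Cd163* (2.69 ± 0.83) and *Slc40a1* (1.63 ± 0.14) were lowest. *Hp* and *Fth1*, *Tfrc* and *Hmox1*, and *Slc11a1* and *Cd163* lay within each other's spread. With the length of the longest transcript in place of all exon bases, *Fth1* came ahead of *Hp* and *Slc40a1* ahead of *Slc11a1* and *Cd163*. On day 14 *Fth1* stood at 695 ± 76.6 CPM per kb, *Ftl1* at 529 ± 53.02 and *Hmox1* at 52.4 ± 18.6, ahead of *Alas2* at 15.7 ± 7.51.

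By group means, *Hmox1* was most like *Mrc1*, the mannose receptor of macrophages, *Ctsb*, a lysosomal protease, and *Cyth4*, with root mean square differences of 0.100, 0.101 and 0.109 on the log2 scale over the 7 groups. *Cd163* was most like *F13a1* (0.195), *Fkbp5* (0.204), a glucocorticoid-responsive chaperone partner, and *Folr2* (0.236). *Slc11a1* was most like *Tyrobp* (0.0657), an adaptor of myeloid receptors, *Htr2b* (0.0670) and *Hk3* (0.0674). For *Alas2* the differences were 0.0495 for *Hba-a1*, 0.0589 for *Hba-a2* and 0.0691 for *Hbb-bs*. The search covered 13136 genes, and the group means of the other 6 members spanned less than 1 on the log2 scale and were not matched.

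Among 75 other genes of heme and iron, of which 70 were tested, changes went both ways. Day 7 had 37 called (25 higher, 12 lower), day 14 had 36 (27 and 9), and day 21 had 37 (24 and 13). Day 28 had 31 (23 and 8), day 35 had 26 (19 and 7) and day 42 had 22 (16 and 6). These were 52.9, 51.4, 52.9, 44.3, 37.1 and 31.4% of those tested, beside the shares of all genes given above. Their median log2FC lay between 0.01 and 0.10 on each day.

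Of 14 genes that capture iron or reduce it for uptake, 7 were called higher on each of days 7 to 28, and 1 to 3 lower. *Lcn2*, which encodes a protein that binds the iron carriers of bacteria, rose from a mean of 86.5 CPM in CTRL to 524 ± 73.5 (SD, n = 10) on day 7, a log2FC of 2.60 (adjusted p = 1.68e-14), and was still at 361 ± 149 on day 42 (n = 7, log2FC 2.06). *Ltf*, lactoferrin, rose from 12.6 to 133 ± 171 CPM on day 42 (n = 7, log2FC 3.40, adjusted p = 2.45e-06), where the SD exceeded the mean. *Slc39a14*, an importer of iron not bound to transferrin, rose from 23.3 to 112 ± 81.3 CPM on day 14 (n = 12, log2FC 2.26, adjusted p = 1.07e-09) and was not called on days 35 and 42. The metalloreductases *Steap1*, *Steap2* and *Steap4* rose by 2.08, 1.29 and 1.30 on day 14, and *Steap2* and *Steap4* were still called on day 42 (0.76 and 0.69). Others of this list went the other way, with *Cybrd1* called lower on each day and *Steap3* on days 7, 35 and 42.

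The 13 heme transport and breakdown genes went both ways, with 6, 6, 6, 4, 5 and 4 called higher and 3, 2, 2, 2, 1 and 1 lower on days 7 to 42 in turn, and a median log2FC of 0.01 to 0.19. *Pgrmc1*, a heme-binding membrane protein, was called lower on each of the 6 days (log2FC -0.64 to -0.39), *Slc48a1*, a heme transporter, on days 7 and 14, and *Bach1*, a heme-sensing repressor of *Hmox1*, on days 7, 21 and 28. *Hpx*, hemopexin, which binds free heme in plasma, went from 1.17 to 3.03 ± 2.45 CPM on day 7 (n = 10, log2FC 1.37, adjusted p = 6.30e-07) and was called on days 14, 21 and 35. The biliverdin reductases *Blvra* and *Blvrb*, which act after heme oxygenase, and the constitutive oxygenase *Hmox2* were called higher on each of the 6 days. Among heme synthesis genes other than *Alas2*, *Tspo* and *Tmem14c* were called higher on each day, and *Alas1*, the synthase of cells other than red cell precursors, was called lower on each day except day 35. For storage and export, *Ncoa4*, which sends ferritin to breakdown, was called higher from day 14 on, and *Cp*, the ferroxidase ceruloplasmin that works with ferroportin, on days 7 to 28. Of the 13 mitochondrial iron genes tested, at most 4 were called on a day.

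Regulators of iron balance were split. *Bmp6*, the endothelial signal that raises hepcidin in the liver, fell from a mean of 247 CPM in CTRL to 88.0 ± 30.8 on day 14 (n = 12, log2FC -1.49, adjusted p = 5.23e-08) and was at 182 ± 67.8 on day 42, where it was not called. The 10 endothelial markers moved with it, with 9 called lower on day 14 and 4 on day 42, and their part was not tested. *Erfe*, erythroferrone, an inhibitor of BMP signals, went from 0.393 to 2.63 ± 1.25 CPM on day 14 (log2FC 2.72, adjusted p = 2.19e-09). *Hamp*, hepcidin, the hormone that closes ferroportin, held a mean of 0.786 CPM in CTRL and 0.188 to 0.856 on the 6 days, and was called on day 21 alone (log2FC -2.02, adjusted p = 0.019). Of the iron sensors, *Aco1* (iron regulatory protein 1) was called higher on days 7 to 35 with log2FC values of 0.23 to 0.42, while *Ireb2* (iron regulatory protein 2) and *Fbxl5*, which marks it for breakdown, lay between -0.00 and 0.12 and were not called on any day.

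**Figure D5:**
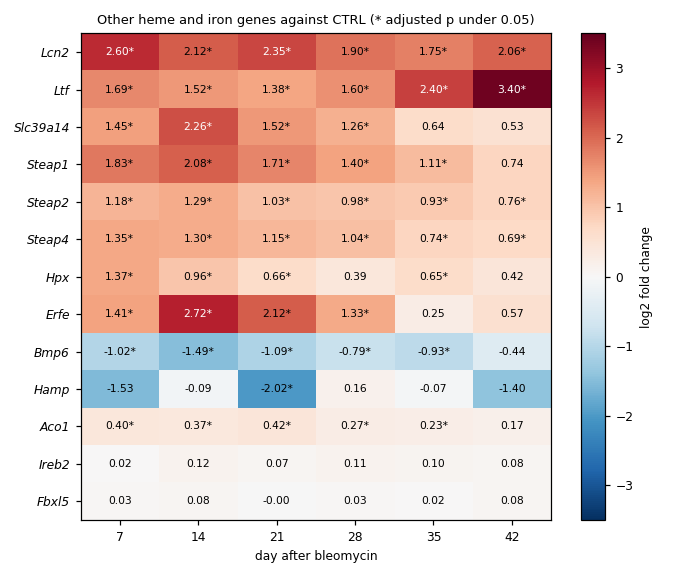
Fitted log2 fold change against CTRL (color and printed value) of 13 other heme and iron genes (rows) by day after BLEO (columns), with an asterisk where the adjusted p was under 0.05. *Ltf* reaches 3.40 on day 42, *Lcn2* 2.60 on day 7, and *Bmp6* -1.49 on day 14, while *Ireb2* and *Fbxl5* stay near 0.

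Promoter windows of 300 bases from RefSeq (GRCm38), 250 before and 50 after the start, were at hand for 6 members, *Slc11a1*, *Cd163*, *Ftl1*, *Tfrc*, *Fth1* and *Alas2*, in 8 windows, and letters were counted on both strands. The core of an antioxidant response element, TGACNNNGC, was in 0 of the 8 windows and in 12.4% of all 32851 windows. This says only that these letters were not in these windows, since sequence outside them was not searched. No window was at hand for *Hmox1*, *Slc40a1*, *Hp* and *Trf*. The GATA motif AGATAA was in the *Alas2* window and in no other member window, beside 11.2% of all windows. ACGTG, the core of a hypoxia response element, was in the *Cd163* window and both *Tfrc* windows, which overlap (19.6% of all), and TTGCNNAA, a C/EBP core, occurred 2 times in 1 of the 2 *Fth1* windows (10.8% of all).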

How the data were processed

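RNA sequencing of the inferior lung lobe was analysed in 75 male mice, with 1 library per mouse. The authors selected polyadenylated RNA, prepared directional libraries, sequenced them single-end, aligned reads with STAR 2.7.0f to GRCm38 (mm10) with the Ensembl release 96 annotation, and deposited counts per gene that are not normalized. The counting program and its treatment of strand and of reads with several matches are not given in the sources used here. All 55536 gene identifiers were found in that annotation. Total counts per library ran from 9240291 to 14665247.

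The members were given by name, and members, lists, ratios and comparisons were chosen with earlier results of these data known. The deposited counts were fitted in R 4.3.3 with edgeR 4.0.16 (filterByExpr, TMM, 1 mean per group, quasi-likelihood F test), with Benjamini-Hochberg adjustment over 16221 genes and a threshold of 0.05. The 6 days were compared with the same 10 CTRL mice, and 7 contrasts were made between days. Named among 75 other heme and iron genes were those called with an absolute log2FC of at least 1 on some day and a mean log2 CPM above 0 (at most 20; 9 passed), with *Hpx*, *Hamp*, *Aco1*, *Ireb2* and *Fbxl5*. *Pgrmc1*, *Slc48a1*, *Bach1*, *Blvra*, *Blvrb*, *Hmox2*, *Tspo*, *Tmem14c*, *Alas1*, *Ncoa4*, *Cp*, *Cybrd1* and *Steap3* were named after their values were seen. For members whose group means spanned at least 1, the 3 genes with the smallest root mean square difference between centred group means were named. Permutation tests used 100000 draws, or each arrangement in groups under 10, in Python with numpy 2.4.6 and scipy 1.17.1. Log2 CPM of the likeness search used a prior count of 2. Alternatives were DESeq2 1.42.0, upper quartile factors, scaling by library size only, testing without the filter, fits of the compared groups alone, the replicate number as a block, an absolute log2FC of at least 0.5, ferritin counts with processed copies, the longest transcript as length, and leaving out each mouse in turn. In simulated day 14 and CTRL counts (15778 genes tested), the fit recovered 87.1% of 93 genes changed 2-fold and 100% of 105 changed 4-fold. It also called 11 unchanged genes. The simulation drew counts from CTRL means, with a spread set by the level of a gene and few genes changed. Its rates need not hold for the real data, where 62.4% of genes were called on day 14. The 375 pairs of mice within groups differed beyond counting noise, with a chi-square per degree of freedom of at least 3.88.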

Additional observations from a re-analysis of the deposited data

Results flagged for a closer look

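In 10 members and 3 groups of 10 or fewer mice (30 sets of values), 6 had a single mouse far from the others by a test of the gap at the end of the range, which chance gives in about 1 of 20 sets. *Alas2* held 120.1 CPM in CTRL replicate 2, above the other controls, and *Slc40a1* 11.3 CPM in CTRL replicate 3, below them. On day 7, *Hmox1* held 102.1 CPM in replicate 5 and *Trf* 50.01 CPM in replicate 3, both the highest of their group. On day 42, *Slc40a1* held 38.1 CPM in replicate 7 and *Slc11a1* 13.9 CPM in replicate 4.

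The change against CTRL differed between days by the test of the difference itself in 14 cases. Day 14 exceeded day 7 for *Hmox1* (log2FC 0.52), *Ftl1* (0.43), *Slc40a1* (0.83) and *Slc11a1* (0.97), and lay below it for *Hp* (-0.50) and *Tfrc* (-0.49). Day 42 lay below day 14 for *Hmox1* (-0.63), *Cd163* (-2.39) and *Slc11a1* (-0.66), and above it for *Tfrc* (0.41). Day 42 lay below day 7 for *Hp* (-0.57) and *Cd163* (-1.95) and above it for *Ftl1* (0.45). Day 21 lay below day 14 for *Cd163* (-1.36). Beside these, 17% of all genes differed between days 14 and 7, 34% between days 42 and 14, 17.8% between days 42 and 7, and 1.03% between days 21 and 14.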

How the results depend on the processing

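The number of members called against CTRL stayed within 1.5 times its value under each alternative run, at 5 to 8, 7 to 8, 6 to 7, 5 to 7, 5 to 8 and 5 to 7 for days 7 to 42 in turn. For the other heme and iron genes the counts ran from 33 to 38 on day 7 and from 18 to 31 on day 42. No called fold change of a member reversed. Values that were not called changed sign under 29 settings of 19 results, each within 0.148 of 0. Without 1 mouse, calls between days appeared for *Hmox1* on day 28 against 21 (8 single mice), *Tfrc* on day 21 against 14 (9), *Alas2* on day 35 against 28 (2) and *Slc40a1* on day 42 against 14 (1), and the cause was not tested. In fits of the compared groups alone, *Slc40a1* on day 7 (adjusted p = 0.0402) and *Cd163* on days 35 (0.0390) and 42 (0.00208) were also called. Leaving out mice from the 2 ratios was added after the values were seen, and the *Fth1* to *Ftl1* ratio of day 7 then differed from CTRL by 0.10 to 0.19.

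Replicate numbers did not pair the mice. Deviations from group means correlated from -0.538 to 0.569 over the 204 pairs of mice with the same number (median 0.00574), and 8 of 75 mice correlated best with a mouse of their own number. With the replicate block the members called were 7, 8, 6, 7, 7 and 5 in the same order. *Trf* was then called on day 28 (adjusted p = 0.0336) and day 35 (0.0278), and *Slc40a1* on day 42 against 14 (0.0266). The low counts of *Hamp*, *Erfe* and *Steap1* limit their precision.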
